A study of Bos indicus x Bos taurus with 17 samples.

Results

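The HOX genes were described in skeletal muscle and liver of 6 bovine fetuses at about day 105 of gestation. Members were the genes of the muscle and liver count tables named HOX with a cluster letter from A to D and a number, which gave 39 of the 21048 genes listed. The HOXA cluster held 11 members, the HOXB cluster 10, and the HOXC and HOXD clusters 9 each. All fetuses were F1 crosses of Bos taurus indicus (Nelore) and Bos taurus taurus (Holstein). Control-AI 2 and 4 were conceived by artificial insemination, and ART-Normal 1 to 4 by assisted reproduction, which the study describes as in vitro production with a body weight near that of the controls. The labels name ART-Normal 4 too, a fetus whose weight the study does not list. Each fetus gave 1 muscle and 1 liver library, so the 12 libraries hold 2 tissues of the same animals. The labels do not say which muscle was taken, from which part of the body, or the sex of each fetus.

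HOX genes encode homeodomain transcription factors that give cells along the head-to-tail axis, and along the limb, their position. They lie in 4 clusters, and a gene's number (its paralog group) follows its place in the cluster, so that low numbers are expressed from the hindbrain and neck backwards and high numbers towards the tail and the tip of the limb. Genes with the same number in different clusters are paralogs, and fibroblasts of the adult keep much of this code. Cells of different origin in 1 tissue can carry different HOX genes, so a bulk library holds the mixture over its muscle, connective, vascular and other cells.

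In the authors' annotation (ARS-UCD1.2) HOXA lies on chromosome 4 and HOXB on chromosome 19, both on the plus strand, and HOXC lies on chromosome 5 and HOXD on chromosome 2, both on the minus strand. HOXA begins with HOXA13 (chr4:68842425-68849845), and in every cluster the members follow each other by number, apart from HOXA4. No gene on the opposite strand overlapped any of the 39 members in the tables, and antisense RNAs of the clusters are not listed there. The libraries were made strand-specific, but the setting used for counting is not given in the sources used here, so reads of a HOX gene and of an unlisted antisense RNA cannot be told apart. On the same strand 3 pairs overlapped. The whole 2215 bp span of HOXA4 lies inside HOXA3, HOXA5 and HOXA3 share 52 bp, and HOXB4 and HOXB3 share 738 bp, or 26.2% of HOXB4. HOXA4 was listed at 0 in all 12 libraries, and since reads from its span also lie in HOXA3, that 0 is not a measurement of its level.

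Library totals ranged from 12433300 to 43339598 counts, and levels are given as CPM, the counts scaled by library size after TMM normalization. Over the 6 liver libraries together a count of 0 allows up to 0.0185 CPM, and over the 6 muscle libraries up to 0.0254 CPM, for counting error only. Skeletal muscle markers (9 listed, among them MYOD1 and ACTA1) summed to between 16594 and 22872 CPM in muscle and to between 7.36 and 40.4 CPM in liver, and hepatocyte markers (8, among them ALB and HNF4A) to between 30582 and 347395 CPM in liver and to between 4.97 and 364 CPM in muscle. Each tissue thus carried its own markers. The library of Control-AI 2 stood apart in both tissues, with the highest hepatocyte sum in liver (347395 CPM, next 59833) and in muscle (364 CPM, next 47.2) and the highest skeletal muscle sum in liver (40.4 CPM, next 8.71).

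By raw library totals, the HOX genes summed to between 440 and 600 CPM in muscle and between 37.3 and 55.0 CPM in liver, so the ranges of the tissues did not overlap. In muscle 36 of the 39 members had at least 1 count and 23 reached a mean of 1 CPM. In liver 25 had a count and 8 reached that mean, which were HOXA3, HOXA5, HOXA6, HOXA7, HOXA9, HOXB2, HOXB3 and HOXB4. The 23 muscle members came from all clusters (7 from HOXA, 5 from HOXB, 7 from HOXC and 4 from HOXD), while HOXC and HOXD had 0 members at 1 CPM in liver. In bulk tissue, fewer cells that express a gene and less RNA per cell cannot be told apart.

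**Figure D1:**
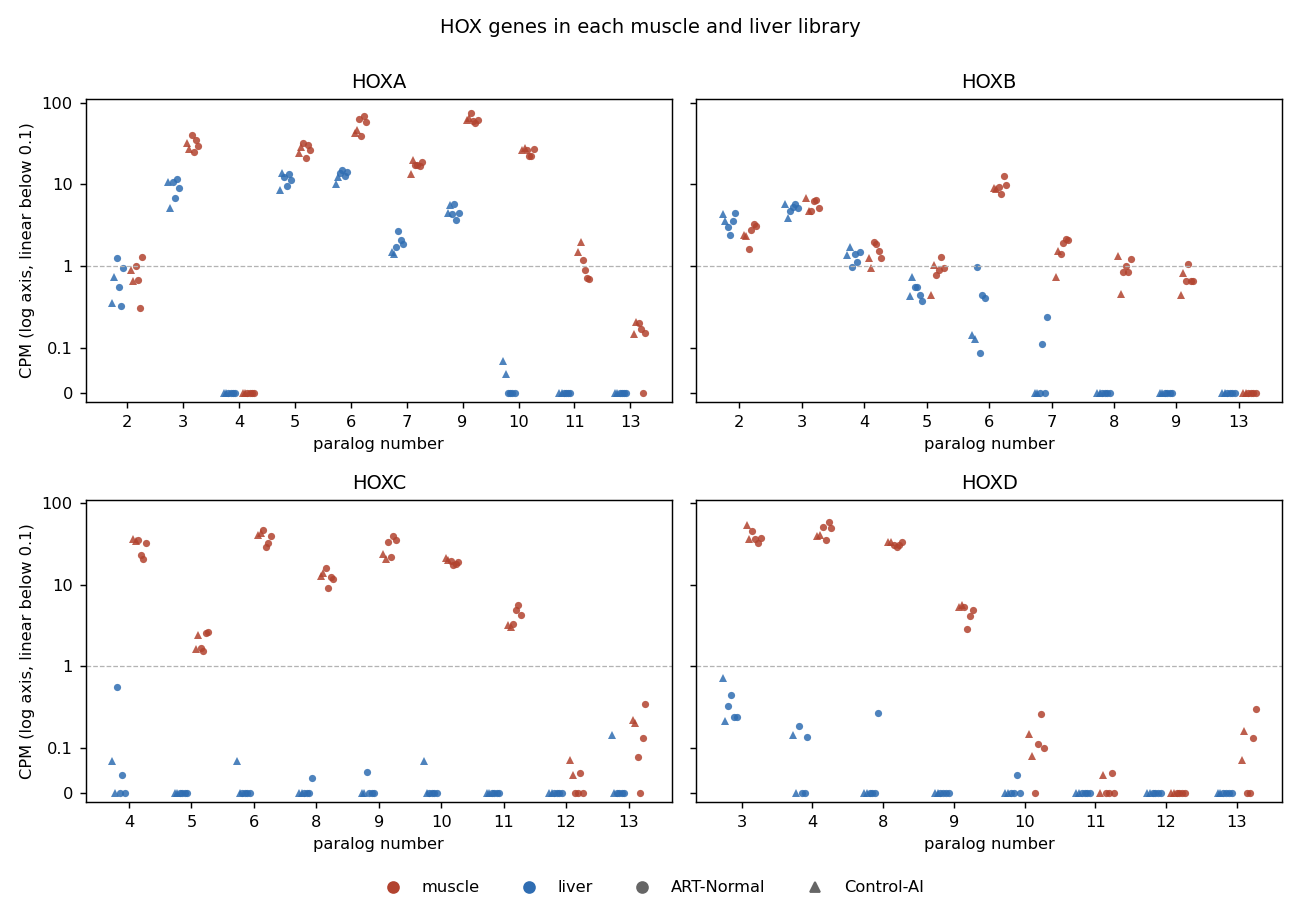
CPM of each HOX gene (vertical axis, log scale, linear below 0.1) in each of the 12 libraries against paralog number from 2 upwards, with a panel for each cluster; red is muscle and blue liver, triangles are Control-AI and circles ART-Normal, and the dashed line marks 1 CPM. In HOXC and HOXD the liver points lie below 1 CPM throughout, while in HOXB the points of both tissues overlap from HOXB2 to HOXB5.

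To compare genes with each other, CPM was divided by the span of the gene in kilobases. The listed length of each gene was its whole span, introns included, so these levels are low for genes with long introns such as HOXA3 and HOXC4. Summed per kilobase, muscle HOXA stood at 42.4 ± 4.01 (SD, n = 6), HOXC at 19.4 ± 1.96, HOXD at 19.2 ± 1.28 and HOXB at 4.36 ± 0.65. The shares were thus 49.7% for HOXA, 22.7% for HOXC, 22.5% for HOXD and 5.14% for HOXB, and HOXC and HOXD lay within each other's SD. In liver HOXA stood at 7.09 ± 0.65 and HOXB at 2.41 ± 0.37, and together these clusters held nearly all of the sum, with 74.0% and 25.2%. Liver HOXC made up 0.168% from 20 counts over 6 libraries, and liver HOXD 0.648% from 75 counts.

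The HOXA cluster was the main HOX cluster of both tissues. In each list of 6 values here and further on, Control-AI 2 and 4 stand before ART-Normal 1 to 4. HOXA9 (chr4:68877182-68880322), a gene of thoracic levels of the trunk, had the highest level per kilobase of all members in muscle, at 20.01 ± 2.01 CPM per kilobase (SD, n = 6), and its CPM was 62.1 and 64.3 in Control-AI 2 and 4 and 74.5, 58.7, 56.4 and 61.2 in ART-Normal 1 to 4. In liver HOXA9 was at 4.42, 5.56, 4.29, 5.72, 3.63 and 4.39 CPM, so the tissues did not overlap and the spread within each was small beside the gap. HOXA5 (chr4:68898585-68902607), a gene of neck and upper thoracic levels, stood at 6.72 ± 1.01 CPM per kilobase in muscle and led the liver at 2.84 ± 0.51. Its CPM was 24.1 and 28.6 in Control-AI 2 and 4 and 31.7, 20.9, 30.5 and 26.3 in ART-Normal 1 to 4 in muscle. The liver libraries held 8.55, 13.7, 12.2, 9.53, 13.3 and 11.2 CPM of HOXA5, below the lowest muscle library in each case.

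HOXA6, the neighbour of HOXA5, showed 42.1, 45.6, 62.4, 38.5, 67.9 and 58.6 CPM in muscle, the highest 3 values being those of ART-Normal 1, 3 and 4. Its liver values of 9.97, 12.2, 13.6, 15.1, 12.5 and 14.1 CPM did not reach the muscle range, and the controls were lowest. HOXA7 stood at 13.2, 19.6, 17.4, 16.98, 16.7 and 18.5 CPM in muscle, with Control-AI 2 below all others and Control-AI 4 above them. In liver HOXA7 was at 1.496, 1.41, 1.71, 2.704, 2.096 and 1.86 CPM, with both controls lowest. HOXA2, which patterns the hindbrain and its neural crest, varied 4.24-fold from lowest to highest among the muscle libraries, with 0.88, 0.65, 1.01, 0.67, 0.31 and 1.301 CPM. That is a range of few counts (98 over the 6 libraries), and HOXA2 covered much the same range in liver, at 0.36, 0.73, 1.25, 0.55, 0.32 and 0.95 CPM. HOXA10 reached 22.2 to 27.7 CPM in muscle, and in liver only 2 counts were found, 1 in each control. HOXA11, which with its paralogs patterns the middle segment of the limb, stood at 1.47, 1.96, 1.17, 0.89, 0.70 and 0.70 CPM in muscle and had 0 counts in every liver library. HOXA13, the gene of the tail end and the hand and foot, had 18 counts in muscle and 0 in liver.

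HOXB was the lowest cluster in muscle, and its genes from HOXB2 to HOXB5 covered overlapping ranges in both tissues. HOXB2 (chr19:37946400-37948660), a hindbrain gene, was highest per kilobase in liver at 1.56 ± 0.34 CPM per kilobase, with CPM of 4.35, 3.51, 2.999, 2.37, 3.55 and 4.39. In muscle HOXB2 was at 2.36, 2.33, 1.62, 2.73, 3.25 and 3.103 CPM, and the ranges of the tissues overlapped. HOXB4, used as a marker of neck-level mesoderm and of blood stem cells, stood at 1.35, 1.71, 0.97, 1.396, 1.13 and 1.49 CPM in liver and 1.25, 0.94, 1.94, 1.84, 1.54 and 1.25 CPM in muscle. HOXB3 ran from 3.81 to 5.76 CPM in liver and from 4.64 to 6.86 CPM in muscle. From HOXB6 to HOXB9 the ranges of the tissues no longer overlapped. HOXB6 (chr19:37889310-37896710) led the cluster in muscle at 1.29 ± 0.23 CPM per kilobase, with 9.07, 8.85, 9.21, 7.68, 12.7 and 9.66 CPM. In liver it had 53 counts and 0.14, 0.13, 0.97, 0.089, 0.44 and 0.41 CPM, of which ART-Normal 1 gave the highest value. HOXB8 spread 2.96-fold in muscle, at 1.33, 0.45, 0.85, 1.002, 0.83 and 1.201 CPM, where the extremes were the 2 controls. HOXB8 and HOXB9 had 0 counts in liver against 111 and 89 in muscle. HOXB7 stood at 0.74 to 2.15 CPM in muscle with 12 counts in liver, HOXB5 at 0.44 to 1.27 CPM in muscle and 0.37 to 0.73 CPM in liver, HOXB1 had 1 count in all, and HOXB13 was at 0 in the 12 libraries.

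HOXC had 16932 counts in muscle and 20 in liver. HOXC10 (chr5:26042721-26047450), known in mouse from the lumbar level and the hind limb, led it per kilobase at 4.07 ± 0.27 CPM per kilobase. Its CPM was 21.02 and 20.2 in Control-AI 2 and 4 and 19.7, 17.6, 18.1 and 18.8 in ART-Normal 1 to 4, within 1.19-fold between the lowest and the highest library. HOXC9, a gene of lower thoracic levels, followed at 3.604 ± 0.99 CPM per kilobase and spread 1.92-fold, with 23.7, 20.4, 33.7, 21.7, 39.00 and 34.8 CPM. ART-Normal 1, 3 and 4 were its 3 highest libraries. In liver HOXC10 and HOXC9 had 1 count each. HOXC4, a neck-level gene, held 35.9, 34.1, 35.7, 23.1, 20.4 and 32.6 CPM in muscle. It was the highest HOXC gene of liver with only 14 counts and 0.071, 0, 0.55, 0, 0.040 and 0 CPM, and 12 of these counts lay in ART-Normal 1. HOXC6 ran at 28.9 to 47.2 CPM in muscle, HOXC8 at 9.02 to 16.1 CPM, HOXC11 at 3.02 to 5.66 CPM and HOXC5 at 1.56 to 2.602 CPM. Liver HOXC6 and HOXC8 had 1 count each, and HOXC5 and HOXC11 none. The end of the cluster was nearly silent in muscle as well, with 3 counts of HOXC12 and 20 of HOXC13, against 0 and 2 in liver.

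HOXD carried 4 members above 1 CPM in muscle. HOXD8 (chr2:20780637-20783398) led at 11.5 ± 0.61 CPM per kilobase, the level after HOXA9 among all members, and its CPM was 33.3 and 33.3 in Control-AI 2 and 4 and 30.97, 29.2, 30.8 and 32.9 in ART-Normal 1 to 4. The lowest and highest library differed 1.14-fold, the least of the members with a count in every muscle library. HOXD8 had 8 counts in liver, all in ART-Normal 4. HOXD3, a gene of the first neck vertebrae, came next at 3.68 ± 0.73 CPM per kilobase and 54.1, 36.1, 45.3, 35.9, 32.7 and 37.4 CPM, with Control-AI 2 highest. It was also the HOXD gene with most counts in liver (55), at 0.71, 0.21, 0.32, 0.44, 0.24 and 0.24 CPM, and Control-AI 2 was highest there too, the library with the highest skeletal muscle marker sum in liver. HOXD4 ranged over 34.96 to 58.05 CPM in muscle. HOXD9, which spread 1.93-fold, was at 5.38, 5.59, 5.37, 2.89, 4.17 and 4.905 CPM and had 0 counts in liver. HOXD1 stayed at 0.28 to 0.67 CPM in muscle. In liver HOXD4 had 10 counts and HOXD1 and HOXD10 had 1 each. The genes of the limb and tail end, HOXD10 to HOXD13, gave 14, 2, 0 and 14 counts over the 6 muscle libraries.

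By paralog group the sum per kilobase in muscle was highest in group 9, at 24.7 ± 2.34 CPM per kilobase (SD, n = 6), followed by 15.2 ± 1.04 in group 8 and 10.9 ± 1.81 in group 6. Groups 8 and 9 did not overlap in any library pair, since group 8 reached 16.0 at most and group 9 was at least 22.2. In liver group 5 was highest at 2.95 ± 0.52, followed by 1.91 ± 0.37 in group 2, 1.58 ± 0.22 in group 6 and 1.49 ± 0.26 in group 9. Groups 2 and 6 differed by less than the SD of group 2, and groups 6 and 9 by less than either SD. Nearly all of the liver level of group 9 was HOXA9. In muscle HOXA9 gave 20.01 of the 24.7 of group 9, and HOXD8 gave 11.5 of the 15.2 of group 8. Groups 11 and 12 had 0 counts in liver, and group 12 had 3 in muscle. Groups held 2 to 4 members, and the sums use whole spans, so this order holds for levels per kilobase only. Without division by span, the mean CPM in muscle was 52.5 in HOXA6, 9.53 in HOXB6 and 38.6 in HOXC6. In group 9 it was 62.9 in HOXA9, 0.71 in HOXB9, 28.9 in HOXC9 and 4.72 in HOXD9, so by CPM group 6 stood slightly above group 9. Group 8, with 0.94 in HOXB8, 12.6 in HOXC8 and 31.7 in HOXD8, then fell below group 3. The latter held 31.5 in HOXA3, 5.66 in HOXB3 and 40.2 in HOXD3. In liver HOXA3 and HOXB3 had 8.94 and 5.04 CPM, against 11.4 in HOXA5.

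Neighbours at the tail end of 3 clusters stood far apart in level. HOXA10 was 1139-fold lower per kilobase than HOXA9 over the 6 liver libraries, with a 95% counting interval of 314 to 9424 because it rests on 2 counts of HOXA10, and 7.45-fold in muscle (7.15 to 7.77). HOXA11 was 8.71-fold below HOXA10 in muscle (7.36 to 10.4). In HOXC the widest step of muscle was 108-fold between HOXC11 and HOXC12 (36.6 to 523), and in HOXD the steps were 12.3-fold from HOXD8 to HOXD9 and 25.6-fold from HOXD9 to HOXD10 (15.1 to 47.1). In HOXB the pooled step from HOXB5 to HOXB6 went in opposite directions in the tissues. HOXB5 was at 0.162 of the level of HOXB6 in muscle (0.132 to 0.196) and at 2.61 times that level in liver (1.82 to 3.76), and the single libraries ran from 0.0822 to 0.195 in muscle and from 0.963 to 10.5 in liver. These intervals cover counting error only, and the ratios use whole spans.

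**Figure D2:**
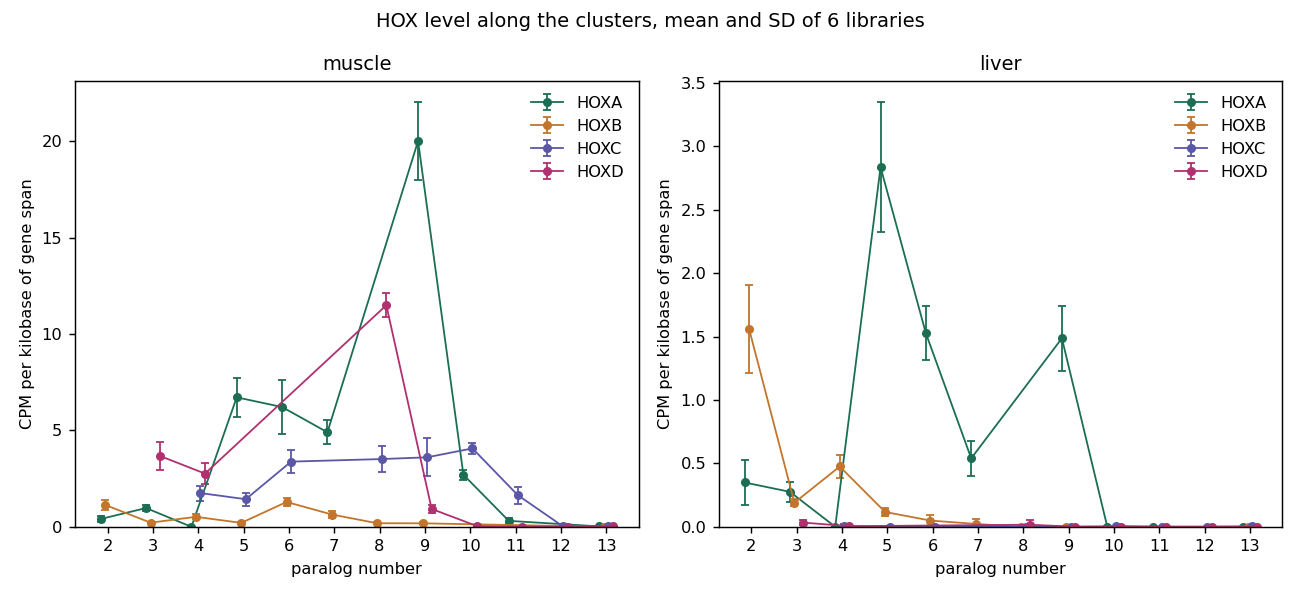
Mean level of each HOX gene in CPM per kilobase of gene span (vertical axis, with a separate scale for each tissue) against paralog number from 2 upwards, with the SD of 6 libraries as bars; lines join the members of a cluster. Muscle peaks at HOXA9 (20.01) and HOXD8 (11.5), and liver at HOXA5 (2.84) and HOXB2 (1.56).

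The comparison of tissues asked which members differed between muscle and liver of the same fetuses. Of all 14742 genes tested, 79.7% were called, 40.2% as higher in muscle and 39.6% as lower, so a call is common here. Of the 21 members with a mean of 1 CPM over the 12 libraries, 18 were higher in muscle, 0 were lower and 3 were not called (edgeR quasi-likelihood test, Benjamini-Hochberg adjusted p at most 0.05). For 13 of the 21 the mean in liver was below 1 CPM, so they entered the test only through their muscle level and had to differ. Among the 8 members at 1 CPM in each tissue, 5 were higher in muscle, and 0 lower, against 39% higher and 37.9% lower of the 12750 genes at that level in both tissues. The median log2 fold change of these 8 was 1.54, and 0.01 over those genes.

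The 5 were all HOXA genes. HOXA9 rose by 3.75 on the log2 scale (SE 0.13, adjusted p = 7.09e-12), HOXA7 by 3.19 (SE 0.17, adjusted p = 6.78e-10), HOXA6 by 2.02 (SE 0.13, adjusted p = 4.29e-09), HOXA3 by 1.83 (SE 0.19, adjusted p = 8.72e-07) and HOXA5 by 1.25 (SE 0.14, adjusted p = 1.87e-06) from liver to muscle. These values come from the fit without the fetus as a block. With the block, the same test gave adjusted p of 1.56e-09 for HOXA9, 7.11e-08 for HOXA7 and 3.37e-07 for HOXA6. For HOXA3 it was 2.90e-07 and for HOXA5 5.79e-07. Without the block, the 95% interval of HOXA9 (3.47 to 4.02) lay above that of HOXA6 (1.74 to 2.30). That of HOXA6 lay above that of HOXA5 (0.94 to 1.55). The 3 that were not called were HOXB2 with a log2 fold change of -0.45 (95% interval -0.98 to 0.08, adjusted p = 0.104), HOXB3 with 0.17 (-0.23 to 0.56, adjusted p = 0.405) and HOXB4 with 0.11 (-0.46 to 0.68, adjusted p = 0.708). These intervals leave room for differences of up to 0.98 on the log2 scale towards liver in HOXB2 and 0.68 towards muscle in HOXB4.

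Where liver held more than 3 counts, HOXB6 differed by 4.81 (SE 0.46) and HOXD3 by 6.82 (SE 0.23) on the log2 scale. For members with 1 to 3 counts in liver the ratio of pooled counts, scaled by library size, was 2013, with a counting interval of 557 to 16632 in HOXA10, and 3045, with a counting interval of 546 to 120312 in HOXC10. For members without a count in liver a floor of 3 counts over the 6 liver libraries gives lower bounds. That limit, of muscle over liver, was 204-fold in HOXD9, 174-fold in HOXC11, 90.2-fold in HOXC5, 49.1-fold in HOXA11, 38.0-fold in HOXB8 and 30.3-fold in HOXB9. Leaving out both libraries of Control-AI 2 left the same 18 members called, of which 13 had to differ.

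**Figure D3:**
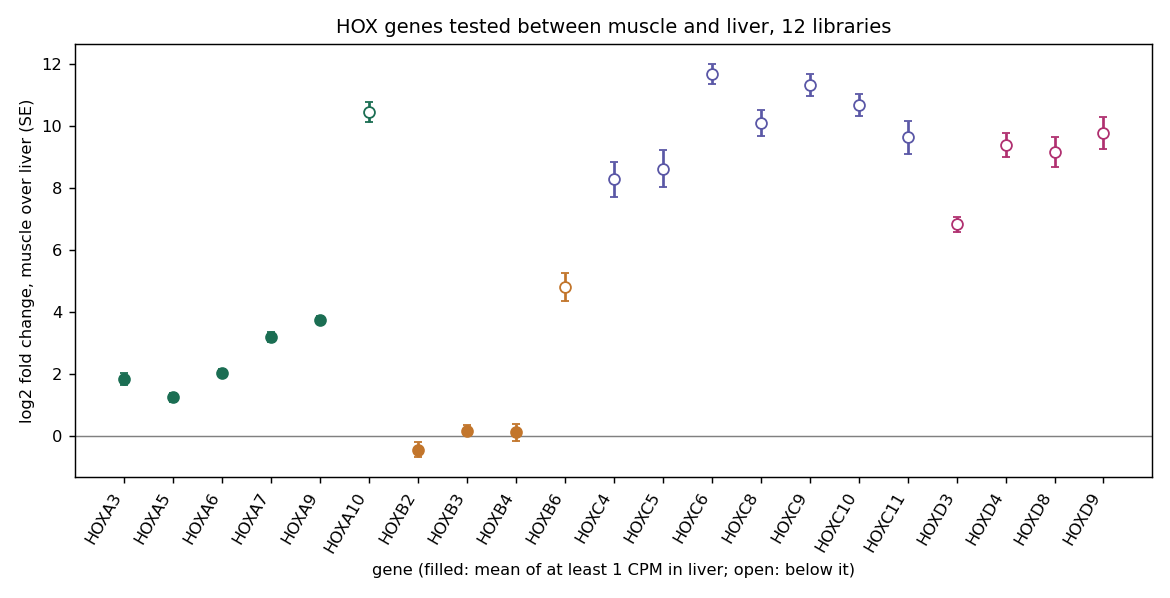
Fitted log2 fold change of muscle over liver (vertical axis, bars are SE) for the 21 HOX genes tested on 12 libraries; filled points had a mean of at least 1 CPM in liver and open points did not. The 5 filled HOXA points lie between 1.25 and 3.75 and the 3 filled HOXB points near 0, while the open points depend on few liver counts and, in HOXC5, HOXC11 and HOXD9 with 0 of them, on the prior count of the fit.

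Markers of other cells moved with the tissue as well. Beside the counts of these markers and of the gene lists that follow, 40.2% of all genes tested were higher in muscle and 39.6% lower. Connective tissue markers (COL1A1 and others) were higher in muscle for 7 of 8 and summed to between 20958 and 26941 CPM there against 559 to 1171 CPM in liver, the exception being TCF21, which was at 0.041 to 0.25 CPM in muscle and 6.599 to 8.76 CPM in liver. Skeletal muscle markers were higher in muscle for 9 of 9 and hepatocyte markers lower for 8 of 8, nerve markers were higher for 4 of 4 tested and endothelial markers for 5 of 6. Blood-forming markers were lower in muscle for 7 of 8, erythroid markers for 6 of 8, and of the markers of mesothelium and stellate cells 2 were higher and 3 lower out of 5 tested, as were 2 and 1 of 3 cartilage and bone markers. In liver the mean was below 1 CPM for 3 of the tested nerve markers, 5 skeletal muscle markers and 1 connective marker. In muscle it was below 1 CPM for 4 erythroid, 4 blood-forming, 1 hepatocyte, 1 connective and 1 mesothelium or stellate marker. These markers entered the test through the other tissue alone and had to differ. Of 6 nerve markers listed, only 4 could be tested. The part of these cell types in the HOX levels was not tested.

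HOX proteins bind DNA together with cofactors of the PBX, MEIS and PKNOX families. Of 9 cofactor genes tested, 6 were higher in muscle, 1 lower and 2 not called. MEIS3 rose by 2.44 (SE 0.35) on the log2 scale and PKNOX2 by 2.34 (SE 0.18). PBX3 was the gene that went the other way, by -0.90 (SE 0.12), with 51.7 to 75.1 CPM in liver and 23.6 to 41.1 CPM in muscle.

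The relatives of the HOX genes include the ParaHox genes and the MEOX and EN genes. Only 4 of 15 could be tested and all 4 were higher in muscle, but 3 of them (MEOX1, EN1 and GBX1) had a mean below 1 CPM in liver, so they entered the test only through their muscle level and had to differ. MEOX1 and MEOX2, which act in the somites from which trunk muscle forms, stood at 29.1 to 35.5 and 121 to 157 CPM in muscle and at 0 to 0.17 and 0.37 to 2.64 CPM in liver, EN1 at 0.86 to 3.503 CPM in muscle with 0 counts in liver, and GBX1 at 2.45 to 4.96 and 0 to 0.17 CPM. Of the CDX genes, which drive HOX genes in the early embryo, CDX2 and CDX4 were at 0 in all libraries. CDX1 was at 0 in muscle and at 0 to 0.56 CPM in liver. EVX2, the neighbour of HOXD13 on the opposite strand, stayed at or below 0.20 CPM. Of 10 tested genes of limb position, 7 were higher in muscle, 2 lower and 1 not called, and here too 5 entered through muscle alone and 2 through liver alone. SHOX2 stood at 16.6 to 29.05 CPM in muscle and 0.17 to 0.47 in liver, and SALL4 at 0 to 0.074 and 11.6 to 19.7. TBX4 and PITX1, hind limb genes, were at 6.53 to 11.5 and 1.45 to 8.56 CPM in muscle, and TBX5, the fore limb gene, at 0.56 to 2.87 CPM, and none of these 3 was at 0 in a muscle library.

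Retinoic acid sets the front borders of many HOX genes in the embryo. All 14 tested genes of its pathway differed between the tissues, 10 higher in muscle and 4 lower, where 79.7% of all genes were called. Of the 10, 3 had a mean below 1 CPM in liver. The receptor gene RXRG was at 35.7 to 54.8 CPM in muscle and 0.10 to 0.42 CPM in liver, STRA6, which takes up retinol, at 1.33 to 2.85 and 0 to 0.081, and ALDH1A1, an enzyme that makes retinoic acid, at 1.78 to 3.003 and 73.5 to 111. Its relatives ALDH1A2 and ALDH1A3 went the other way, with 25.3 to 55.5 and 76.6 to 96.6 CPM in muscle. In liver these were at 10.3 to 15.2 and 10.2 to 13.5 CPM. Of 9 genes of the KMT2 (MLL) machinery, which keeps HOX genes active, 2 were higher in muscle, 2 lower and 5 not called. KMT2A rose by 1.03 (SE 0.08) and PSIP1 by 0.55 (SE 0.11), while DOT1L fell by 0.40 (SE 0.14) and RBBP5 by 0.17 (SE 0.07). With library size alone as scaling, DOT1L and RBBP5 were no longer called.

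The comparison of conception groups asked whether HOX levels of ART-Normal fetuses differed from those of Control-AI fetuses. In muscle 0.00714% of the 14004 genes tested were called (1 gene), and of 23 members tested 0 were called. At an unadjusted p under 0.05 there were 1374 of all genes and 2 members, HOXC9 and HOXA11, and the likelihood ratio test of edgeR and DESeq2 also called 0 members. HOXC9 had a log2 fold change of 0.54 (SE 0.22, 95% interval 0.04 to 1.05), with an adjusted p of 0.465, and ART-Normal 2 lay between the controls. HOXA11 had a log2 fold change of -0.99 (SE 0.42, 95% interval -1.95 to -0.03), with an adjusted p of 0.487, and its 4 ART-Normal libraries lay below both controls. HOXA6 followed with 0.36 (SE 0.21, adjusted p = 0.629), and ART-Normal 2 was the lowest of its 6 libraries.

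Of the members with the highest levels per kilobase in muscle, HOXA9 differed by -0.02 (95% interval -0.34 to 0.30) and HOXD8 by -0.12 (-0.40 to 0.17) on the log2 scale. HOXA6 and HOXD4, which came after HOXA9 in CPM, differed by 0.36 (-0.11 to 0.83) and 0.26 (-0.17 to 0.69). Among the 23, 12 fold changes were above 0 and 11 below, from -0.99 in HOXA11 to 0.70 in HOXB7 (-0.29 to 1.69). The libraries of the groups did not overlap for 5 members, 1 with ART-Normal above (HOXC11) and 4 with ART-Normal below (HOXA11, HOXC10, HOXD8 and HOXD9), against 8.77% above, 7.01% below and 15.8% in either direction of all genes tested.

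In liver 0 of 13933 genes were called (0%), 1240 had an unadjusted p under 0.05, and of 8 members tested 0 were called and 0 had such a p, with 0 calls by the likelihood ratio test and by DESeq2. The smallest p belonged to HOXA6, with a log2 fold change of 0.31 (SE 0.19, 95% interval -0.12 to 0.73, adjusted p = 0.618). HOXA7 had 0.52 (SE 0.39, adjusted p = 0.669) and HOXB4 -0.31 (SE 0.40, adjusted p = 0.803). HOXA6 and HOXA7 were the 2 members whose groups did not overlap, both with ART-Normal above, against 8.93% above and 17.6% in either direction of all genes. A difference between tissues in the effect of conception was called for 0 of 14742 genes (0%) and 0 of 21 members. Of the members, HOXA10 alone was under 0.05 there before adjustment (adjusted p of 0.813 in edgeR). It rests on the 2 liver counts, both in controls.

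**Figure D4:**
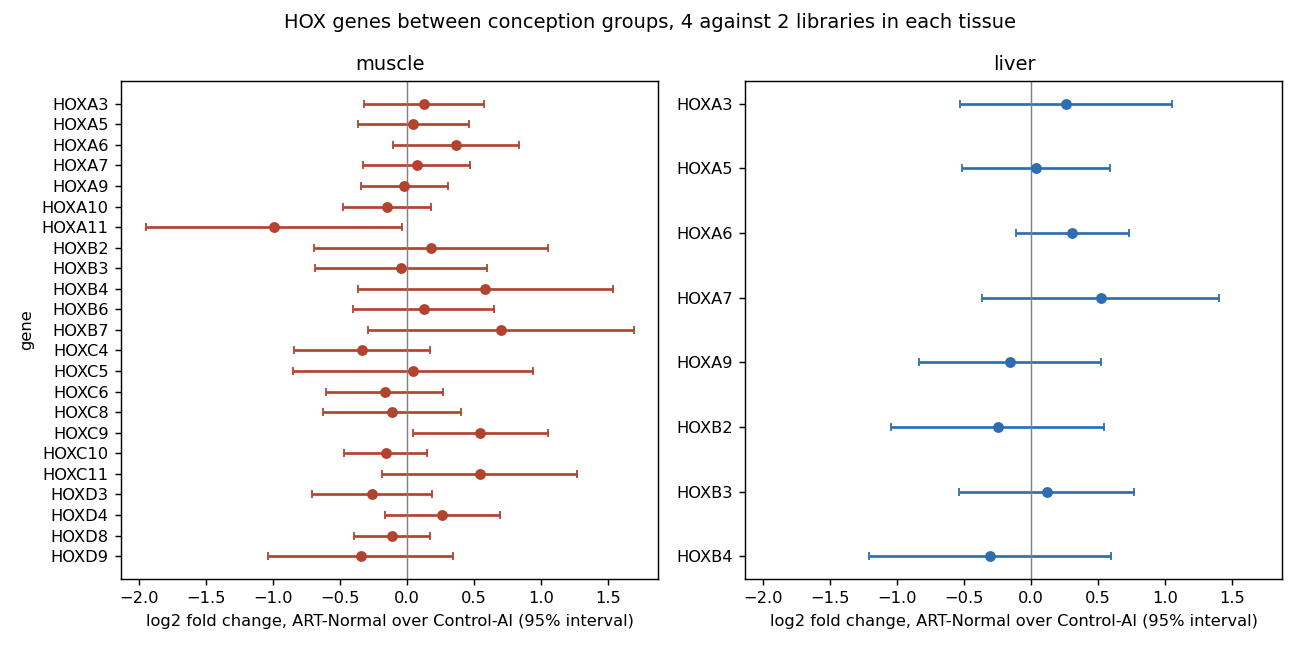
Difference between conception groups as log2 fold change, ART-Normal over Control-AI, with its 95% interval (horizontal axis), for the 23 HOX genes tested in muscle and the 8 tested in liver, from 4 against 2 libraries in each tissue. The intervals cross 0 except those of HOXC9 (0.04 to 1.05) and HOXA11 (-1.95 to -0.03) in muscle, neither of which passed after adjustment over all genes.

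Spread among the 4 ART-Normal fetuses was described by the coefficient of variation, with no test. In muscle it had a median of 20.3% over the 23 members and of 12.8% over all genes tested, and in liver of 19.3% over 8 members and 14.2% over all genes. These values are not matched for expression level. HOXA7 (4.57%), HOXC10 (4.84%) and HOXD8 (4.90%) varied least in muscle and HOXB2 (27.6%) most. In muscle 4 members, HOXA6, HOXB6, HOXC9 and HOXD4 from the 4 clusters, had ART-Normal 1, 3 and 4 as their 3 highest libraries, which was so for 9.22% of all genes tested, and these 4 were picked after their values were seen.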

How the data were processed

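Muscle and liver libraries of 6 fetuses were used (poly(A) selection, paired reads of 150 bp), and the labelled kidney libraries were not analysed here. The authors deposited unnormalized counts for 21048 genes on ARS-UCD1.2, and the submitters' processing notes name HISAT2 2.1.0 and featureCounts. Counts were over gene spans as far as the listed lengths show. The strand setting is not given in the sources used here. The tables hold 14 further count columns, which were not used. Another 5 deposited tables hold comparisons by the authors (fold changes and p-values) and were not used either. Repeated identifiers (9) were kept as listed.

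CPM after TMM scaling and edgeR 4.0.16 quasi-likelihood tests were computed in R 4.3.3 over genes with a mean of at least 1 CPM in the libraries compared, with Benjamini-Hochberg adjustment over all of them and a threshold of 0.05. The tissue comparison had the conception group as covariate. SE and 95% intervals follow from the fold change and its F statistic. Ratios of counts have exact intervals. Python 3.11.15 with SciPy 1.17.1 gave the summaries. Alternatives were RLE, upper quartile and library size scaling, no filter, 5 CPM in all libraries of a group, 10 counts in every library, edgeR's likelihood ratio test, DESeq2 1.42.0 (Wald), the fetus as a block, and leaving out each fetus. The tests were tried on simulated counts with 200 changed genes.

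The members, lists and tests were chosen with earlier results of these data known. Values per library are given for, in each cluster, the 2 members highest per kilobase in muscle and the 1 highest in liver. They are also given for the 3 smallest p in each tissue. In each cluster the member with the widest range in muscle is included too, among those with at least 1 CPM in their highest library. Of each other gene list, the 3 largest changes are named. A few items are not reported here. HOXB3, HOXA10, PBX3, TCF21, GBX1, RBBP5, TBX4, TBX5, PITX1, CDX1, CDX2, CDX4, EVX2, ALDH1A2 and ALDH1A3 were added after values were seen. PAX7, set as a muscle marker, is not among the names listed. Muscle and liver of a fetus are paired by animal. Across genes their deviations from the group means correlated at r of 0.61 in the controls, which are 2 and so mirror each other, and at 0.30, 0.09, 0.13 and 0.40 in ART-Normal 1 to 4.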

Additional observations from a re-analysis of the deposited data

How the results depend on the processing

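The same 18 members were called higher in muscle than liver with RLE, upper quartile and library size scaling, the likelihood ratio test, DESeq2, and without each fetus in turn (18 each time). With the fetus as a replicate block, which the pairing calls for, there were 18 as well, and the interaction had 0 members. For 13 of the 18 the mean in liver was below 1 CPM, so they had to differ and their repeated calls tell little. The other 5, all HOXA genes at 1 CPM in each tissue, were called in each of these runs. With no filter there were 27 of 36 tested, beside 6600 of all 18749 genes. With ART-Normal fetuses alone there were 19 of 22, beside 5756 of 14620. With 5 CPM in a group there were 16 of 16, beside 5256 of 12923. With at least 10 counts in every library there were 5, beside 4923 of 12544, because only 8 members could then be tested. The members gained with no filter or with ART-Normal fetuses alone had means below 1 CPM in liver, so their calls tell little. Leaving out 1 fetus, the log2 fold change of HOXB4, not called, ranged from -0.063 without ART-Normal 1 to 0.29 without Control-AI 4. Between conception groups and in the interaction, 0 members were called under each alternative run. Library size scaling moved the median log2 fold change of all genes from 0.0076 to 0.14 between tissues, from -0.00058 to 0.20 in liver and from 0.012 to -0.20 in the interaction.

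Counts over all genes were less stable. In muscle 302 genes were called by the likelihood ratio test and 249 by DESeq2, and between 0 and 1308 without 1 library (1308 without Control-AI 4, 4 without Control-AI 2). In liver these were 222, 145 and 0 to 842 (842 without Control-AI 4, 1 without Control-AI 2), and in the interaction 80, 32 and 0 to 225 (225 without Control-AI 4). Without a control, the lone control left is assumed to vary like the ART-Normal libraries. The cause was not tested.

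Of the HOX relatives 9 were called between tissues with no filter, 2 with 5 CPM and 1 with 10 counts, of the limb genes 2 with 10 counts, where fewer genes were tested, and of the KMT2 genes 2 with library size alone. By CPM without division by span, muscle HOXA made up 43.6%, HOXC 27.1% and HOXD 24.6% of the sum, and liver HOXB 20.8%. Division by exon length was not run, since no annotation of the build was used here. Depth limits the liver values of HOXC and HOXD, which rest on 20 and 75 counts.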

Other observations

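The few HOXC and HOXD counts of liver were spread unevenly over the fetuses. HOXC had 5 counts in Control-AI 2, 13 in ART-Normal 1, 1 each in ART-Normal 3 and 4, and 0 in Control-AI 4 and ART-Normal 2. HOXD had 13 and 5 in Control-AI 2 and 4 and 11, 20, 7 and 19 in ART-Normal 1 to 4. Scaled by library size, HOXC was highest in ART-Normal 1 (0.60 CPM, against 0.36 in Control-AI 2) and HOXD in Control-AI 2 (0.93 CPM, against 0.64 in ART-Normal 4). The skeletal muscle markers of the same liver libraries summed to 40.4 and 7.36 CPM in Control-AI 2 and 4 and to 8.26, 8.02, 8.26 and 8.71 CPM in ART-Normal 1 to 4, so Control-AI 2 was the highest library for the muscle marker sum and for HOXD but not for HOXC. MYOD1 was at 0 in all 6, and the part of muscle RNA in these counts was not tested.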
